A study of Mus musculus with 15 samples.

Results

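The 10 genes of the MYC, MAX and MXD network were followed in mouse embryonic stem cells (ESCs) losing the transcription factor OCT4, the product of *Pou5f1*. The members are the MYC paralogs *Myc*, *Mycn* and *Mycl*, their shared partner *Max*, and the genes of the competing MAX partners *Mxd1*, *Mxd3*, *Mxd4*, *Mxi1*, *Mnt* and *Mga*. They were taken by name, with earlier results of these data known, and are 10 of the 48709 genes counted. All 10 had enough reads to be tested in the CreER cells, and 9 of them had enough to be compared in the O4AID cells, where *Myc* did not.

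MYC proteins bind DNA only as dimers with MAX, mainly at E-box sequences, and raise the transcription of genes for ribosome production, metabolism and the cell cycle. MXD proteins, MXI1, MNT and MGA also pair with MAX, so they compete with MYC both for MAX and for the same sites, and they recruit repressor complexes there. In mouse ESCs *Mycn* and *Myc* serve growth and self-renewal in partly overlapping ways, and MGA works within a Polycomb complex, PRC1.6, that holds germline genes silent.

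RNA was sequenced along time courses in 2 lines. CreER ESCs (genotype Oct4Fl/-; CAG CreER, strain Mixed 129SV C57BL/6) hold a floxed *Pou5f1* allele, their other allele being null through a β-geo insertion, and they express the 4-OHT-dependent recombinase CreER from the ubiquitous CAG promoter. They were untreated (0 h) or given 500 nM 4-OHT for 12, 18, 24 or 36 h, with 2 replicate libraries at each time. O4AID ESCs (Oct4-/- with TetOFF Oct4 and with CAG Oct4AID and CAG Tir1 transgenes, strain 129SV) lack endogenous *Pou5f1* function and live on OCT4 fused to an auxin-inducible degron, which the plant protein TIR1 marks for degradation once the auxin IAA is present. They were untreated or given 500 µM IAA for 1.5, 6, 10 or 24 h, with 1 library at each time. All O4AID cells, untreated ones included, also received 1 µg/ml doxycycline, which silences their wild-type *Oct4* transgene. Both transgenes of this line were inserted by piggyBac transposition under the CAG promoter. Cells of both lines grew in N2B27 medium with 1 µM PD03, 3 µM Chiron and mLIF on gelatin. The lines differ in strain, history and treatment, so a difference between them cannot be told apart from any of these. They also differ in the share of reads counted in pseudogenes, 6.07% to 6.79% in CreER and 1.78% to 2.02% in O4AID. The part that this had in levels set between the lines was not tested. No label says whether replicates came from separate cultures, so p-values measure the spread between these libraries, which may be technical. Untreated libraries were taken at 0 h only. Within a line, loss of OCT4, exposure to 4-OHT or IAA and time in culture therefore cannot be told apart in these libraries.

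Between 21.7 and 30.8 M (mega) reads were counted per CreER library and between 40.5 and 48.7 M per O4AID library. *Pou5f1* itself fell in CreER, with log2 fold changes of -0.51, -0.96, -1.26 and -1.43 at 12, 18, 24 and 36 h, whereas in O4AID, where IAA acts on the protein, its log2 ratio at 24 h was -0.25. The 7 naive ESC markers examined had more than 3 counts in some library of each line, and their summed level was 1772 CPM (library-scaled read counts per mega-count) at 0 h and 1846 at 36 h in CreER, against 4699 at 0 h and 1251 at 24 h in O4AID. By gene, 2 of the 7 were called higher and 3 lower at 36 h in CreER, beside 19.4% and 17.2% of all genes. In O4AID all 7 were at least 2-fold lower at 24 h, beside 7.03%. All 8 trophectoderm markers were called higher at 36 h in CreER, where their sum went from 274 to 576 CPM, and the sums were 25.3 and 92.6 CPM in O4AID. The 6 feeder fibroblast markers summed to between 21.6 and 33.6 CPM in CreER and to between 2.53 and 4.95 CPM in O4AID. The 6 primitive endoderm markers summed to between 14.8 and 37.8 CPM in CreER and 9.95 and 42.9 in O4AID, and the 4 neural markers to between 220.3 and 286 and between 60.4 and 105 CPM. In bulk RNA, fewer cells of a type and less RNA per cell cannot be told apart, and the part that such shifts in cell identity had in the results on the network was not tested.

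The promoters are shown for the 3 members that differed by at least 2-fold at 24 h in O4AID, a choice made on these values. They are the 250 bases before the transcription start in RefSeq (GRCm38.p6), written on the gene's own strand, with capitals marking the searched letters. The genes as counted reach further upstream than these RefSeq starts. The windows of *Mycn* and *Mxd4* therefore overlap the counted genes in part, and that of *Mycl* lies wholly inside its gene. *Mycn* (chr12:12941837-12942086, minus strand) has 2 E2F sites (TTTGGCGC) and 2 GC boxes (GGGCGG or its complement CCGCCC).
Mycn: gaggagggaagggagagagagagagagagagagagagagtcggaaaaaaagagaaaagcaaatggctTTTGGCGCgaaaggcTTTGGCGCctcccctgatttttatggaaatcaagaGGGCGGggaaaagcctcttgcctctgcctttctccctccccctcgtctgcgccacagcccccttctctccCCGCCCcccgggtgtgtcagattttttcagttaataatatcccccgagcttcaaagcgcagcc
*Mycl* (chr4:122995681-122995930, plus strand) has a GC box and the letters TATAAA close to the start.
Mycl: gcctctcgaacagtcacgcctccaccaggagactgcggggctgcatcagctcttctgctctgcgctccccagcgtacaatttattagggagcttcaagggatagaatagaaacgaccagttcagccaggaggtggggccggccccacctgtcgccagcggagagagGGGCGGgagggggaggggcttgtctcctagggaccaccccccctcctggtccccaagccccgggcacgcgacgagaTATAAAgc
*Mxd4* (chr5:34187711-34187960, minus strand) has 1 E-box (CACGTG), the letters that MYC and MAX dimers recognise, and 1 GC box.
Mxd4: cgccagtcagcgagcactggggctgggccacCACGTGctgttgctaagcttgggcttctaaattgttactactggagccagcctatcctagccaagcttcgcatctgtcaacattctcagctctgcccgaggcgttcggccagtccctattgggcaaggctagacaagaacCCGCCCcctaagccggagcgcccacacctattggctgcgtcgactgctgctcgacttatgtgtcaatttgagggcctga
RefSeq windows were matched for 9 of the 10 members, 11 windows in all. An E-box was present in those of *Mxd4*, 219 bases before the start, and *Mnt*, 123 bases before it, compared with 6.02% of 32851 promoters of this length. The octamer ATGCAAAT, which OCT4 can bind, was in 0 of the 11 windows and in 1.6% of all promoters. The E2F letters (TTTCCCGC or TTTGGCGC) of *Mycn* were in 1.3% of all promoters, GGGCGG in 32.7% and TATAAA in 12.4%. Both strands were searched, and a match is a string of letters, not a bound site.

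Compared per length, *Mycn* was the most abundant member in untreated CreER ESCs and *Mga* in untreated O4AID ESCs. In CreER at 0 h the mean levels, in CPM per kilobase (kb) of exon, were 52.9 for *Mycn*, 31.3 for *Mga*, 21.9 for *Max*, 8.83 for *Myc*, 4.84 for *Mnt*, 3.99 for *Mxi1*, 3.83 for *Mycl*, 2.49 for *Mxd3*, 0.765 for *Mxd1* and 0.523 for *Mxd4*. No neighbours in that order overlapped between the 2 libraries at 0 h, but *Mxi1* and *Mycl* differed by only 1.04-fold and their ranges over the 10 CreER libraries overlapped, as did those of *Mycn* with *Mga*, *Mnt* with *Myc*, and *Mxd1* with *Mxd4*. In O4AID at 0 h *Mga* stood at 29.7 CPM per kb, *Max* at 18.7 and *Mycn* at 18.5. *Mxi1* (7.52), *Mycl* (6.45) and *Mnt* (5.42) followed in that line, then *Mxd3* (1.87), *Mxd1* (0.87) and *Mxd4* (0.835). *Myc* was last there, at 0.00823 CPM per kb. Thus the MAX partners with the highest mRNA levels were *Mycn* and *Mga* in both lines, and *Mxd1*, *Mxd3* and *Mxd4* were at the low end, above only *Myc* in O4AID.

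**Figure D1:**
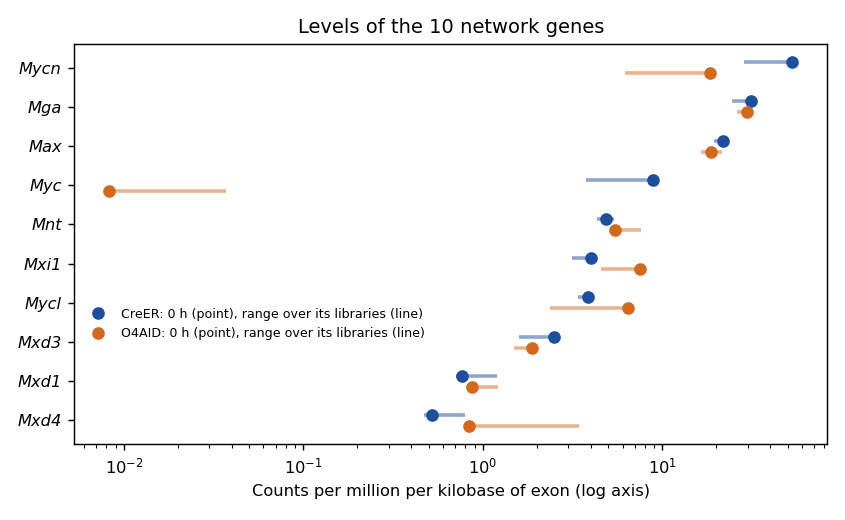
Levels of the 10 members in CPM per kilobase of exon on a log axis. Points are the 0 h level (mean of 2 CreER libraries, 1 O4AID library) and lines run from the lowest to the highest library of each line. *Myc* lies between 3.76 and 9.21 in CreER and between 0.00823 and 0.037 in O4AID.

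Across the network, the CreER course brought losses of *Myc*, *Mycn*, *Mxi1* and *Mga* and late gains of *Mxd1* and *Mxd4*. Calls rest on the quasi-likelihood test of edgeR over 18969 genes, with an adjusted p under 0.05. At 12 h 1 of 10 members was called, lower, where 0.395% of all genes tested were called and 0.137% were lower. At 18 h 3 members were called, all lower (8.52% of all genes called, 3.79% lower), and at 24 h 4 members, all lower (21.6% called, 10.6% lower). The call of *Mxi1* at 18 h was lost under 10 of 17 alternatives. Among these, DESeq2 and the fit of only the 4 libraries compared gave a count of 2 at 18 h. At 36 h 6 members were called, 4 lower and 2 higher, against 36.6% of all genes called, 17.2% lower and 19.4% higher. With RLE or total-count scaling, or without a filter on low counts, 8 were called at 36 h, with *Max* and *Mxd3* also lower. The median log2 fold change of the members was -0.04, -0.06, -0.03 and -0.2 at the successive times, compared with medians between -0.00035 and 0.013 over all genes. Between 24 h and 36 h 3 members were lower (*Myc*, *Mycn* and *Max*), beside 14.7% of all genes called and 6.55% lower. Without either 12 h library the count at 12 h was 0, without replicate 2 of 18 h that at 18 h was 1, without either 36 h library that at 18 h was 4 with *Mga* added, and without replicate 2 of 24 h or of 36 h that between these times was 1. Members whose libraries lay wholly outside the range of the 0 h libraries numbered 3, 5, 8 and 8 of 10 at 12, 18, 24 and 36 h, beside 38.1%, 50.6%, 58.6% and 64.6% of all genes, and 5 of 10 were outside the 24 h range at 36 h, beside 54.8%. The comparisons with 0 h share the same 0 h libraries and are not independent.

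In O4AID, where no test was possible, a gene was counted when its level differed from 0 h by at least 2-fold and it had a mean of at least 10 counts. None of the 9 members compared passed at 1.5 h (0 members, 3.12% of all genes) or 6 h (0 members, 5.73%). At 10 h 2 passed, *Mycl* lower and *Mxd4* higher (7.86% of all genes, 3.27% lower and 4.58% higher). At 24 h 3 passed, with *Mycn* and *Mycl* lower and *Mxd4* higher (16.7% of all genes, 7.03% lower and 9.63% higher). Between CreER replicates, 1.32% of gene pairs differed by as much. As a yardstick, each ratio was also set against the largest log2 difference that the same gene showed between CreER replicates. By that measure 4, 3, 7 and 6 members stood out at 1.5, 6, 10 and 24 h, beside 26.9%, 40.4%, 48.7% and 64.3% of all genes.

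**Figure D2:**
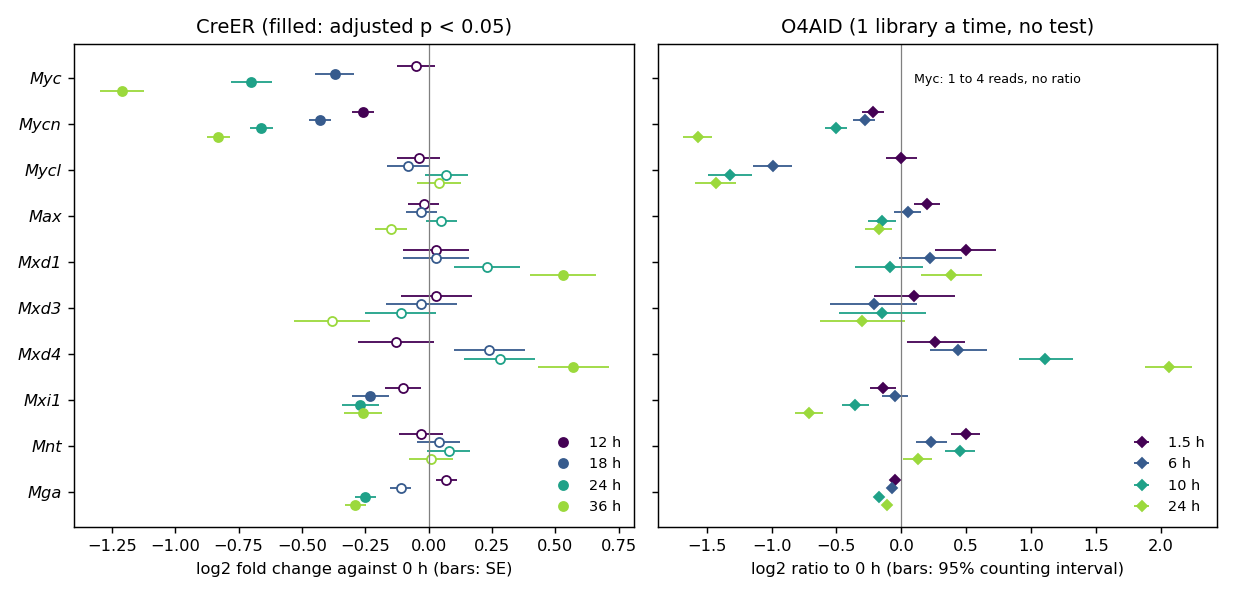
Log2 changes of the members against 0 h, by time. Left, CreER fold changes with SE bars, filled where the edgeR adjusted p was under 0.05. Right, O4AID ratios with 95% counting intervals and no test. *Myc* at 36 h (-1.21) is the lowest CreER value, and *Mxd4* at 24 h (2.06) is the highest O4AID value.

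Among the MYC paralogs in CreER, *Mycn* was called lower from 12 h on and *Myc* from 18 h on, and *Mycl* was not called at any time. The difference between *Mycn* and *Myc* was not tested, and without replicate 1 of 12 h their log2 fold changes at that time were -0.241 and -0.191, neither of them called. *Myc* (ENSMUSG00000022346, GRCm38 chr15:61985341-61990374, plus strand) stood at 24.9 and 25.4 CPM in the libraries of 0 h, at 26.1 and 22.0 in those of 12 h, at 19.9 and 18.8 in those of 18 h, at 15.2 and 15.6 in those of 24 h, and at 10.6 and 10.97 in those of 36 h. From 18 h on, every library was below both 0 h libraries. The mean went from 25.1 ± 0.37 CPM (SD, n = 2) to 10.8 ± 0.234, which is -1.21 on the log2 scale at 36 h (SE 0.088, adjusted p 1.22e-11). The earlier log2 fold changes were -0.05, -0.37 and -0.70 at 12, 18 and 24 h, with adjusted p of 0.896, 0.00246 and 1.84e-07. Without replicate 2 of 18 h the change at that time was -0.32 with an edgeR adjusted p of 0.0625. Between 24 h and 36 h the change in *Myc* was -0.50 on the log2 scale (SE 0.094, adjusted p 0.000366).

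*Mycn* (ENSMUSG00000037169, chr12:12936096-12941914, minus strand), the paralog first known from neuroblastoma, stood at 181 and 177 CPM before treatment. After 12 h of 4-OHT it stood at 147 and 151, after 18 h at 134 and 129.9, after 24 h at 111 and 116, and after 36 h at 102 and 96.7 CPM. Its libraries were apart from the 0 h libraries at every time. The mean fell from 179 ± 3.13 CPM (SD, n = 2) to 99.4 ± 3.85. Its log2 fold changes were -0.26, -0.43, -0.66 and -0.83 at 12, 18, 24 and 36 h, with SE of 0.043 to 0.045 and adjusted p from 0.00375 at 12 h to 2.64e-14 at 36 h. It was the member called at 12 h, a call that was lost without replicate 1 (edgeR adjusted p 0.177) or replicate 2 (0.054) of that time. The step from 24 h to 36 h was -0.18 (adjusted p 0.00805) and was lost without replicate 2 of 24 h (0.125) or replicate 2 of 36 h (0.0963).

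*Mycl* (ENSMUSG00000028654, chr4:122995652-123002485, plus strand), a paralog linked to lung cancer and to dendritic cells, stood at 15.7 and 16.1 CPM at 0 h and at 16.5 and 15.9 at 36 h, with the other CreER libraries between 14.1 and 16.98. The groups overlapped at 12 h and 36 h. The log2 fold change at 36 h was 0.04, with a 95% normal interval from -0.13 to 0.21 (adjusted p 0.764). At 24 h it was 0.07 (-0.09 to 0.24, adjusted p 0.597), although both 24 h libraries, at 16.5 and 16.98 CPM, lay above both 0 h libraries. A fall as large as that of *Mycn* at 36 h lies outside this interval.

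**Figure D3:**
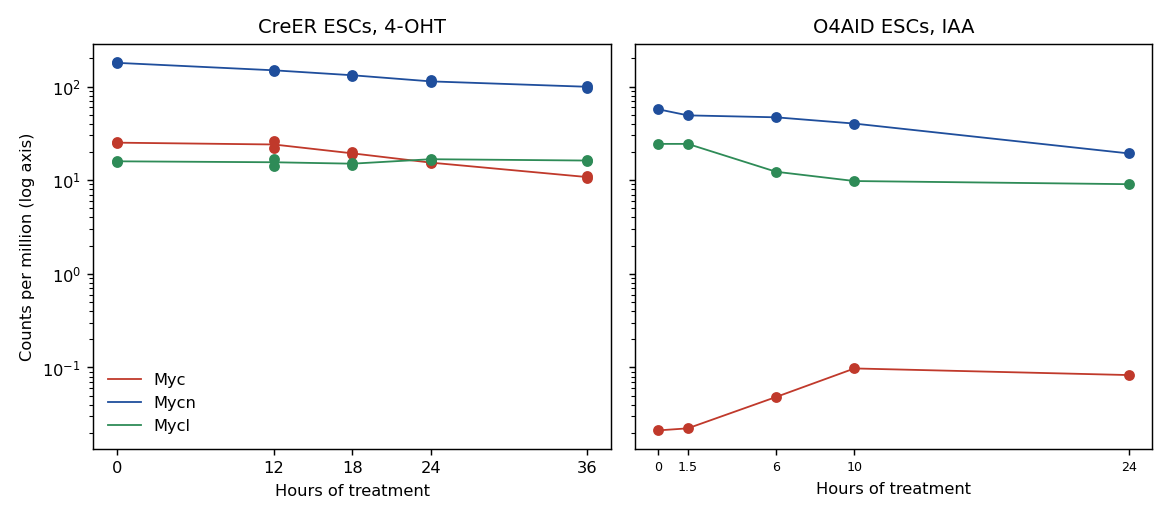
Levels of the MYC paralogs by hours of treatment in CPM on a log axis. Points are libraries and lines join the means. In CreER *Myc* falls from a mean of 25.1 to 10.8 and *Mycl* stays between 14.1 and 16.98. In O4AID *Mycl* falls from 24.4 to 9.06 and *Myc* lies between 0.0213 and 0.0977.

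In O4AID the courses were different. *Mycl* was level at 1.5 h and lower by 6 h, and *Mycn* was slightly lower from 1.5 h on and fell mainly after 10 h. *Mycl* stood at 24.4 CPM both before IAA and after 1.5 h of it, then at 12.3, 9.79 and 9.06 CPM after 6, 10 and 24 h. Its log2 ratio to 0 h was -0.99 at 6 h (95% exact counting interval -1.14 to -0.84), -1.32 at 10 h and -1.43 at 24 h (-1.59 to -1.27), on 1144 reads at 0 h and 437 at 24 h. The largest difference between CreER replicates of *Mycl* was 0.27. *Mycn* stood at 57.1, 49.2, 46.9, 40.2 and 19.3 CPM in order of time. Its log2 ratio went from -0.22 at 1.5 h (-0.30 to -0.13) through -0.28 and -0.50 to -1.57 at 24 h (-1.68 to -1.46). The step from 10 h to 24 h alone was -1.06 (-1.18 to -0.95). Each of its ratios to 0 h exceeded the largest difference between CreER replicates of *Mycn*, 0.08. Set beside CreER at 24 h, the value of *Mycn* was -0.66 there and -1.57 here, and that of *Mycl* was 0.07 there and -1.43 here. The difference between the lines was not tested, since each O4AID time has 1 library.

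*Myc* was at the limit of detection in every O4AID library. It had 1, 1, 2, 4 and 4 reads at 0, 1.5, 6, 10 and 24 h, that is between 0.0213 and 0.0977 CPM, whereas the shallower CreER libraries held 227 to 803 reads. At 0 h the normalised level was 1074-fold higher in CreER (95% exact counting interval 192 to 42439.7), from 1367 reads against 1. Over all libraries it was 327-fold higher (187 to 634), from 5123 reads against 12. No ratio between O4AID times was read from such counts. As a context chosen after these values were seen, of 9273 genes with at least 200 reads in every CreER library, 132 had at most 4 reads in every O4AID library. Of these 121 are annotated as pseudogenes and 6 as protein coding, *Myc*, *Gm7879*, *Psme2b*, *Rbm8a2*, *Gm11273* and *Gm10320*, which is 0.0702% of 8541 protein-coding genes at that depth in CreER. Pseudogenes as a class took 6.07% to 6.79% of reads in CreER and 1.78% to 2.02% in O4AID. The part that this difference in counted pseudogene reads had in the *Myc* result was not tested.

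The expressed neighbours of *Myc*, also picked after the values were seen, were read in both lines, apart from a pseudogene. *Pvt1*, a long noncoding RNA 47.6 kb downstream of *Myc* (chr15:62037986-62378096), had 182 to 310 reads in CreER (8.52 to 10.8 CPM) and 82 to 203 in O4AID (2.0 to 4.33 CPM). *Fam84b*, on the other side, had 6.64 to 8.79 CPM in CreER and 2.56 to 7.3 in O4AID. *Fam49b* had 80.2 to 89.6 and 77.8 to 138 CPM. *Tsg101-ps*, a processed pseudogene, had 379 to 553 reads in CreER and 0 to 2 in O4AID.

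*Max* (ENSMUSG00000059436, chr12:76937269-76962248, minus strand), the partner all other members share, stayed within a narrow range. In CreER it stood at 47.3 and 42.9 CPM at 0 h and at 40.3 and 39.97 at 36 h, with the libraries in between from 42.6 to 47.5. Its log2 fold changes lay between -0.03 and 0.05 up to 24 h, and the one of 36 h was -0.15 (SE 0.063, adjusted p 0.0548), which missed the threshold although both 36 h libraries were below both 0 h libraries. It was -0.0815 (edgeR adjusted p 0.404) when replicate 1 of 0 h was left out, and -0.229 (0.0135) when replicate 2 was. The adjusted p was 0.114 with DESeq2 and 0.109 over the 4 libraries compared alone, and 0.0417 with RLE and 0.00329 with total-count scaling. The step from 24 h to 36 h was -0.21 (adjusted p 0.0243), and it was lost when any of the 4 libraries compared was left out (adjusted p 0.0631 to 0.18). In O4AID *Max* stood at 35.2, 40.5, 36.3, 31.7 and 31.2 CPM, and its log2 ratio at 24 h was -0.17 (-0.28 to -0.07), beside a largest CreER replicate difference of 0.14.

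Of the MXD genes, which encode repressors that come on as many cell types stop dividing, *Mxd4* rose in CreER and was over 4-fold higher at 24 h in O4AID. *Mxd4* (ENSMUSG00000037235, chr5:34173883-34187720, minus strand) stood at 5.01 and 4.11 CPM in untreated CreER cells. After 12 h of 4-OHT it stood at 4.13 in both libraries, after 18 h at 4.81 and 5.83, after 24 h at 5.48 and 5.49, and after 36 h at 6.44 and 6.96 CPM. Both libraries of 24 h and of 36 h were above those of 0 h. The change reached 0.57 on the log2 scale at 36 h (SE 0.14, adjusted p 0.00158), from 0.28 at 24 h (adjusted p 0.158). When replicate 2 of 0 h was left out, this value was 0.42 with an edgeR adjusted p of 0.0501. In O4AID *Mxd4* stood at 6.64, 7.97, 9.01, 14.4 and 27.7 CPM, higher at each successive time. The log2 ratios were 0.26, 0.44, 1.11 and 2.06 at 1.5, 6, 10 and 24 h, the last with a 95% exact counting interval of 1.88 to 2.24, a 4.17-fold difference on 1336 reads against 311. The largest difference between its CreER replicates was 0.29. Its exons share 514 bases with *Gm42846* on the opposite strand, which had 0 reads in all libraries.

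*Mxd1* (ENSMUSG00000001156, chr6:86647042-86669161, minus strand), the founding MXD gene, stood at 5.85 and 5.27 CPM at 0 h and 7.16 and 8.8 at 36 h in CreER. All 4 libraries from 24 h on were above both 0 h libraries. The log2 fold changes at 24 and 36 h were 0.23 (adjusted p 0.212) and 0.53 (SE 0.13, adjusted p 0.002), and without replicate 2 of 36 h it was 0.38 with an edgeR adjusted p of 0.064. In O4AID *Mxd1* stood at 5.76, 8.13, 6.73, 5.4 and 7.53 CPM with no steady course, and its log2 ratio at 24 h was 0.38 (0.15 to 0.62). *Mxd3* (ENSMUSG00000021485, chr13:55325168-55329758, minus strand), the MXD gene tied to cells in S phase, went the other way without being called. It stood at 5.45 and 5.2 CPM at 0 h and at 3.4 and 4.83 at 36 h, a log2 difference of -0.38 (SE 0.15, adjusted p 0.0552). Its 2 libraries at 36 h were further apart, by 0.51 on the log2 scale, than those of any other member at any time. The value was -0.125 (edgeR adjusted p 0.643) when replicate 1 of 36 h was left out and -0.637 (0.00754) when replicate 2 was, so its size rested on which of these libraries was kept. The adjusted p was 0.166 with DESeq2 and 0.0486 with RLE scaling. *Mxd3* also shares 104 exonic bases with *Prelid1* on the opposite strand, which had 2608 to 7451 reads. As the strand setting of the counting is not stated, part of the *Mxd3* reads may belong to that gene. In O4AID *Mxd3* had 130 to 175 reads, and its ratio at 24 h was -0.30 (-0.63 to 0.03).

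*Mxi1* (ENSMUSG00000025025, chr19:53310506-53375810, plus strand), also called *Mxd2*, was lower in both lines. In CreER it stood at 22.9 and 23.2 CPM before 4-OHT, and at 22.2 and 20.7 after 12 h of it. After 18 h it stood at 19.98 and 19.2, after 24 h at 19.5 and 18.8, and after 36 h at 20.0 and 18.1 CPM. Every treated library was below both untreated ones. Its log2 fold changes were -0.23, -0.27 and -0.26 at 18, 24 and 36 h (SE 0.072 to 0.075), with adjusted p of 0.0454, 0.00893 and 0.00722. The call at 18 h was lost under 10 of 17 alternatives (largest adjusted p 0.277, without replicate 2 of 18 h), including DESeq2 (0.147), and the later ones without replicate 2 of 24 h (0.0773) or replicate 2 of 36 h (0.0981). The edgeR adjusted p at 18 h was between 0.0543 and 0.277 in the 8 fits that left out a library of 0, 12, 18 or 24 h. In O4AID *Mxi1* stood at 39.6, 35.98, 38.3, 30.9 and 24.2 CPM, and its log2 ratio was -0.36 at 10 h and -0.71 at 24 h (-0.82 to -0.60), beyond the CreER replicate difference of 0.15.

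*Mnt* (ENSMUSG00000000282, chr11:74830920-74845725, plus strand), a widely expressed MYC antagonist, was not called in CreER. It stood at 25.3 and 20.7 CPM at 0 h and at 24.1 and 21.5 at 36 h, and the log2 fold change was 0.01 (95% normal interval -0.17 to 0.18, adjusted p 0.967). The CreER groups overlapped with 0 h at every time. In O4AID it stood at 23.5, 33.2, 27.5, 32.2 and 25.6 CPM in order of time. Its log2 ratios of 0.50 at 1.5 h (0.38 to 0.61) and 0.45 at 10 h (0.34 to 0.57) exceeded the largest CreER replicate difference of 0.29. Those of 0.23 at 6 h and 0.13 at 24 h did not. *Mga* (ENSMUSG00000033943, chr2:119897228-119969581, plus strand), whose product carries both a MAX-dimerising domain and a T-box, fell late and by little. It stood at 491 and 497 CPM in untreated CreER cells and at 509 and 526 after 12 h of 4-OHT. After 18 h it stood at 452 and 459, after 24 h at 407 and 422, and after 36 h at 418 and 387 CPM. From 18 h on, all of its libraries were below both 0 h libraries. On the log2 scale it fell by 0.25 by 24 h (SE 0.041, adjusted p 4.64e-05) and by 0.29 by 36 h (adjusted p 3.18e-06), on 7998 to 15648 reads. In O4AID *Mga* went from 427 to 395 CPM, a log2 ratio of -0.11 at 24 h against a CreER replicate difference of 0.11.

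Summed per length, the mRNA of the MYC paralogs was lower at each later time in both lines while that of the 5 smaller antagonist genes (*Mxd1*, *Mxd3*, *Mxd4*, *Mxi1* and *Mnt*) stayed within a narrow range. The antagonist sum as planned also held *Mga*, and with it the sum in CreER was lower than at 0 h from 18 h on. The MYC sum was 66.1 and 64.96 CPM per kb in untreated CreER cells and 56.1 and 56.6 after 12 h of 4-OHT. It was 50.2 and 48.6 after 18 h, 41.7 and 43.9 after 24 h, and 38.1 and 36.1 after 36 h. The antagonist sum without *Mga* was between 11.9 and 13.2 in all 10 libraries. With *Mga*, the most abundant of them, it was 44.4 and 43.5 at 0 h, 44.7 and 45.5 at 12 h, 40.8 and 41.2 at 18 h, 37.5 and 39.3 at 24 h, and 38.5 and 36.3 at 36 h. The ratio of the MYC sum to the sum without *Mga* went from 5.0 and 5.42 to 3.2 and 3.05. In O4AID the MYC sum was 24.96 at 0 h, 22.2, 18.3 and 15.4 at the next times, and 8.56 at 24 h, and the antagonist sum was between 16.4 and 18.6 without *Mga* and between 43.3 and 47.2 with it. The ratio to the sum without *Mga* went from 1.51 to 0.521 there. With *Mga* the antagonist sum of O4AID at 0 h was 46.2, already above the MYC sum. *Mycn* made up 77.5% to 81.05% of the MYC sum in CreER and 71.2% to 83.2% in O4AID. The share of *Myc* in CreER was 13.2% and 13.7% at 0 h and 9.87% and 10.6% at 36 h, and that of *Mycl* was 5.72% and 5.98% and then 10.5% and 10.6%. These sums are mRNA, say nothing of protein, and carry no test.

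**Figure D4:**
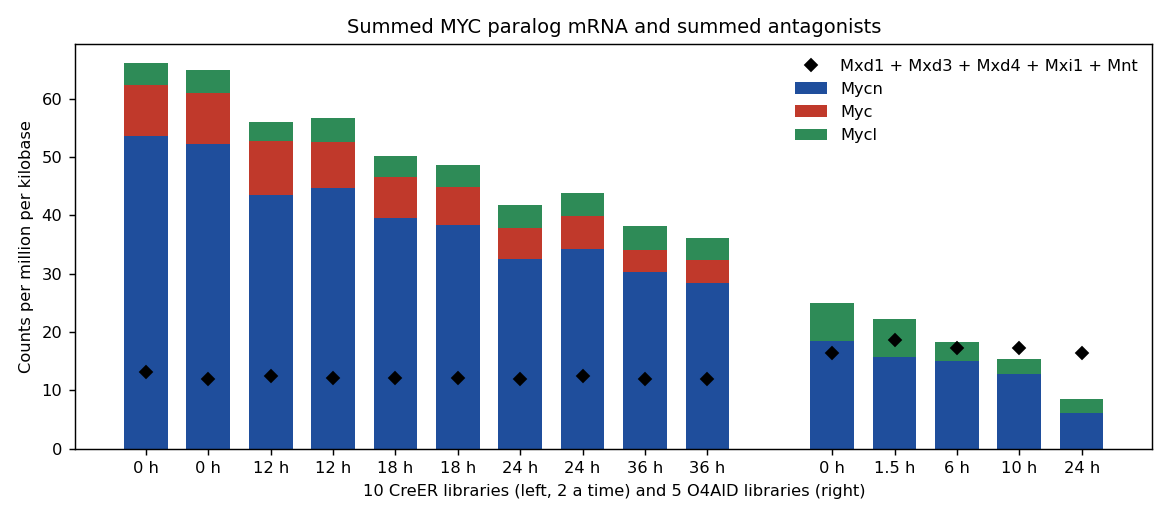
Summed MYC paralog mRNA (stacked bars) and the sum of *Mxd1*, *Mxd3*, *Mxd4*, *Mxi1* and *Mnt* (diamonds) in each library, in CPM per kilobase. Bars go from 66.1 and 64.96 to 38.1 and 36.1 in CreER and from 24.96 to 8.56 in O4AID, where they pass below the diamonds. The diamonds leave out *Mga*. With *Mga* the antagonist sum is above the bar in every O4AID library, 0 h included.

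Genes that work with the network were read from lists written from general knowledge, by counts of called genes at 36 h in CreER beside the 17.2% of all genes that were lower and the 19.4% that were higher. The MLX arm (*Mlx*, *Mlxip* and *Mlxipl*), a parallel set of dimers that sense glucose, had 0 of 3 called at 36 h by edgeR, 0 by DESeq2 and 0 at an unadjusted p under 0.05. At 18 h and at 24 h edgeR called 1 of 3, higher, beside 8.52% and 21.6% of all genes called in either direction. DESeq2 called 0 and 1 at those times. Of 11 MYC cofactors 1 was higher and 4 were lower (median -0.09). The one that rose was *Trrap*, a scaffold of histone acetylase complexes, from 155 and 162 to 192 and 175 CPM (log2 fold change 0.22, adjusted p 0.00223), and without replicate 1 of 36 h 0 were higher and 3 lower. The one that fell furthest was *Ruvbl1*, an ATPase of chromatin complexes, from 12.5 and 13.9 to 10.0 and 10.4 CPM (-0.36, adjusted p 0.00418). Its level in untreated O4AID was 87.1 CPM.

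Of 8 genes of the SIN3 corepressor, which MXD proteins and MNT recruit, 1 was higher and 4 were lower (median -0.13). *Sin3b*, a scaffold subunit, rose from 135 and 134 to 189.6 and 189 CPM (log2 fold change 0.50, SE 0.04, adjusted p 8.29e-11), whereas its log2 ratio at 24 h in O4AID was -0.42. *Sap30*, a small subunit of the same complex, fell from 67.6 and 61.96 to 39.7 and 37.7 CPM (-0.73, SE 0.057, adjusted p 5.08e-11), and it went from 59.6 to 19.5 CPM in O4AID (-1.61). Of 9 genes of PRC1.6, the complex MGA belongs to, 2 were higher and 4 lower (median -0.04). *L3mbtl2*, a subunit that binds chromatin, fell from 199.9 and 198 to 141 and 148 CPM (-0.46, adjusted p 7.59e-10), and *Yaf2* rose from 6.29 and 6.18 to 8.32 and 7.44 (0.35, adjusted p 0.0264). Of 9 genes for MYC protein turnover 4 were higher and 2 lower (median 0.11), and with total-count scaling 1 was higher and 2 lower. *Usp28*, a deubiquitinase that protects MYC, fell from 188 and 180.2 to 98.04 and 87.7 CPM (-0.97, SE 0.048, adjusted p 4.87e-15). *Fbxw7*, the ubiquitin ligase subunit that *Usp28* counteracts, rose from 60.9 and 64.7 to 74.8 and 71.5 CPM (0.23, adjusted p 0.000614).

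Of 32 genes known as MYC-activated targets, mostly for ribosome production and metabolism, 24 were lower and 0 higher at 36 h in CreER. The counts lower were 0 at 12 h (edgeR, with 1 gene of the list at an unadjusted p under 0.05 and 0 called by DESeq2), 9 at 18 h beside 3.79% of all genes and 19 at 24 h beside 10.6%, with 1 higher at 24 h, and DESeq2 called 16 of the list at 24 h. The list's median log2 fold change at 36 h was -0.23, beside 0.007 over all genes, and it was -0.57 at 24 h in O4AID, beside -0.013. Most changes were small, and in O4AID at 24 h 1 of 32 was past 2-fold lower and 1 higher, beside 7.03% and 9.63% of all genes. *Ccnd2*, cyclin D2, fell furthest, from 13.1 and 13.96 to 6.84 and 5.27 CPM (log2 fold change -1.14, SE 0.11, adjusted p 2.99e-09). In O4AID its level went from 1.58 to 5.99 CPM instead, a log2 ratio of 1.92, and this difference between the lines was not tested. At 24 h in O4AID 1 of 6 MYC-repressed targets was past 2-fold higher and 1 lower, beside 9.63% and 7.03% of all genes. Their median log2 ratio there was -0.04, beside -0.013 over all genes. At 36 h in CreER 4 of the 6 were higher and 0 lower, led by *Cdkn2b*, the cyclin-dependent kinase inhibitor p15, from 3.25 and 3.23 to 5.8 and 5.61 CPM (0.83, adjusted p 8.66e-05). Of 11 germline genes that PRC1.6 represses 1 was higher and 3 were lower (median -0.10), and without replicate 1 or without replicate 2 of 36 h 1 was higher and 1 lower. At 24 h in O4AID the list had 2 of 11 past 2-fold higher and 0 lower, and its median log2 ratio was 0.59. *Taf7l*, a germ cell transcription factor subunit, rose from 5.17 and 4.11 to 10.8 and 9.23 CPM (1.14, SE 0.13, adjusted p 1.04e-07), and went from 3.14 to 13.4 CPM in O4AID (2.09). *Mael*, a gene of the piRNA pathway, fell from 16.6 and 17.6 to 12.1 and 14.3 CPM (-0.37, adjusted p 0.00249), whereas it went from 9.2 to 13.9 CPM in O4AID (0.59). The lists were chosen with earlier results of these libraries known, so the counts are descriptions.

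**Figure D5:**
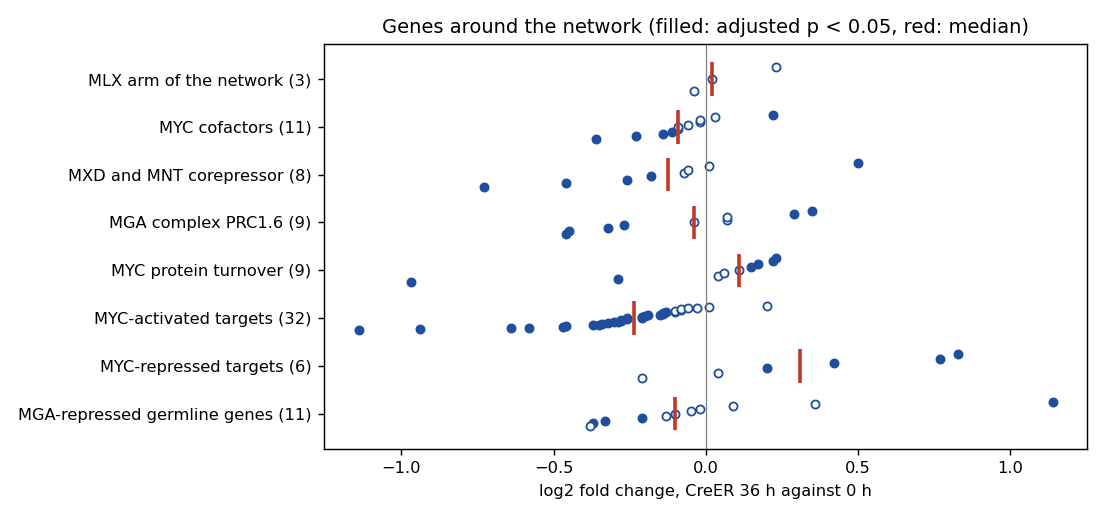
Log2 fold changes at 36 h in CreER for the genes of the 8 lists, with the number of genes in parentheses. Filled points have an edgeR adjusted p under 0.05 and red bars are medians. Of the MYC-activated targets 24 of 32 are filled, all below 0.

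The genes whose course was most like that of *Myc* and *Mycn* were found by the root mean square (RMS) difference in log2 change. The genes named were picked as the nearest, so their distance below the median of all genes follows from that choice and carries no test. *Myc* could be compared over the 4 CreER times, which share the 0 h libraries, a restriction added after its O4AID counts were seen. Nearest of 11967 genes were *Dpp4*, *Myrf*, *Dusp27*, *Tbc1d9* and *Liph*, at RMS differences of 0.061 to 0.0737, where the median over all genes was 0.727. Their log2 fold changes at 36 h were -1.29, -1.29, -1.11, -1.08 and -1.1. *Mycn* was compared over 8 comparisons, 4 in each line, which share the 0 h libraries within a line. Nearest of 11966 genes were *Celf4*, *Fstl1*, *Jag1*, *Hk2* and *Hpdl*, at 0.18 to 0.196, with a median over all genes of 0.732. At 24 h in O4AID these had log2 ratios of -1.54, -1.6, -2.02, -1.5 and -1.35, beside -1.57 for *Mycn*. *Jag1* encodes a Notch ligand and *Hk2* a hexokinase of glycolysis.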

How the data were processed

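Total RNA was depleted of ribosomal RNA, sequenced as directional paired-end libraries and, per the methods and processing notes, trimmed with Trim Galore 0.1.4, aligned to GRCm38/mm10 with TopHat2 2.1.0 and counted with featureCounts 1.5.1 on an Ensembl annotation of that build. Strand and multimapping settings were not given in the sources used here. The authors deposited raw read counts per gene for each library, which were used here, and a normalised table, which was not. Of 48801 entries, 92 spike-ins with 0 reads were left out. Groups and replicates came from the labels.

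CreER counts were tested with edgeR 4.0.16 in R 4.3.3 (quasi-likelihood test, TMM factors, filterByExpr, robust dispersion), with all 10 libraries in 1 fit and Benjamini-Hochberg adjustment over 18969 genes. O4AID values are ratios of TMM-scaled counts with 0.5 reads added and exact Clopper-Pearson 95% intervals (SciPy 1.17.1), which cover counting error only, as the reads carry no molecular identifiers. A count of 3 or fewer was taken as the floor. Levels per kilobase used the exon length in the count files and TMM factors over all 15 libraries. Fits were tested on simulated counts. Replicates differed by 3.27 to 7.76 times the sampling variance (chi-square per degree of freedom), so each counted as a library of its own. Promoter windows came from RefSeq and gene types from GENCODE, both of the files' build, and overlaps from the exon positions given with the counts.

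Named genes were the 10 members, *Pou5f1*, the called gene with the largest rise and the largest fall in each list, and the 5 genes nearest to *Myc* and to *Mycn* among genes with a mean of at least 50 counts in both lines. The members and lists were chosen with earlier results of these data known. Alternatives were other scalings, filters and tools (DESeq2 1.42.0), a replicate block, other fold limits and references, and leaving out each library.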

Additional observations from a re-analysis of the deposited data

Results flagged for a closer look

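*Mycl* differed in direction between the lines at 24 h. Both CreER libraries of 24 h, at 16.5 and 16.98 CPM, were above both 0 h libraries, at 15.7 and 16.1 CPM, whereas the O4AID library went from 24.4 to 9.06 CPM. The O4AID log2 ratio minus the CreER log2 fold change was -1.50. Since each O4AID time has 1 library, this difference was not tested, and the CreER part of it (0.07, edgeR adjusted p 0.597) was not a call. Strain, route of OCT4 loss and time since loss of the protein cannot be told apart in it.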

How the results depend on the processing

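The counts of members called changed as follows, with the cause not tested unless named. Leaving out 1 library, which leaves a lone library assumed to vary like the others, gave 0 to 1 member called at 12 h, 1 to 4 at 18 h and 1 to 3 for 36 h against 24 h, with the low values where either 12 h library, the second 18 h library, or the second library of 24 h or 36 h was missing, and the 4 at 18 h (*Mga* added, edgeR adjusted p 0.0374 and 0.0316) where either 36 h library was. At 24 h and 36 h the counts stayed within 1.5 times of 4 and 6, but the members called at 36 h changed. The count at 36 h was 8 with RLE or total-count scaling or without a filter, as *Max* and *Mxd3* were added. It was 7 when each library had to hold at least 10 counts, as *Max* was added. In O4AID a 1.5-fold limit gave 1 member at 6 h (*Mycl*), and taking the 1.5 h library as the reference gave 1 member at 10 h (*Mycl*).

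The replicate numbers did not pair the libraries, as the differences between replicates correlated by -0.0781 to 0.0881 over 13486 genes. With the replicate block the members called were 1, 3, 4 and 6 at the successive times and 3 for 36 h against 24 h, the same genes as without it, and all genes called were 89, 1677, 4139 and 6999 in place of 75, 1616, 4089 and 6948.

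Total-count scaling moved the median of all genes to -0.103 for 36 h against 24 h and to -0.078 at 36 h, so changes were read on the TMM scale. It called 2696 of 7498 genes higher at 36 h in place of 3686 of 6948, 2277 of 3714 in place of 2084 of 4089 at 24 h, 31 of 84 in place of 49 of 75 at 12 h, and 682 of 3887 in place of 1542 of 2785 for 36 h against 24 h. DESeq2 called 989 genes at 18 h, 2585 at 24 h and 1671 for 36 h against 24 h. Without a filter 222 genes were called at 12 h.

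In CreER signs turned only in values that were not called. Total-count scaling gave -0.0446 for *Mycl* at 36 h, -0.00869 for *Mxd1* and -0.00666 for *Mxd3* at 12 h, -0.0789 for *Mnt* at 36 h and -0.101 for *Mxi1* between 24 h and 36 h. *Mnt* at 36 h was -0.00415 with RLE scaling, -0.00972 with DESeq2 and -0.00517 without a filter, and *Mxi1* between 24 h and 36 h was -0.00396 without a filter and -0.000213 when each library had to hold at least 10 counts. Where leaving out a library turned a sign, the log2 fold change is given as its range. For *Myc* it ran from -0.191 to 0.0572 at 12 h. For *Mycl* it ran from -0.178 to 0.0925 at 12 h. For *Max* it ran from -0.0906 to 0.0567 at 12 h, from -0.105 to 0.0418 at 18 h and from -0.024 to 0.124 at 24 h. For *Mxd1* it ran from -0.102 to 0.128 at 12 h and from -0.0532 to 0.107 at 18 h. For *Mxd3* it ran from -0.00861 to 0.068 at 12 h and from -0.121 to 0.0706 at 18 h. For *Mxd4* it ran from -0.28 to 0.0133 at 12 h. For *Mxi1* it ran from -0.0709 to 0.0752 for 36 h against 24 h. For *Mnt* it ran from -0.175 to 0.123 at 12 h, from -0.109 to 0.189 at 18 h, from -0.0683 to 0.23 at 24 h, from -0.142 to 0.156 at 36 h and from -0.164 to 0.00494 for 36 h against 24 h. For *Mga* it ran from -0.0873 to 0.0253 for 36 h against 24 h. In O4AID, *Mga* at 24 h was 0.001 with total-count scaling, under which the ratios near 0 of *Mxi1* at 6 h and *Mycl* at 1.5 h also turned sign. Taken against 1.5 h in place of 0 h, the log2 ratios of *Max* (-0.155), *Mxd1* (-0.271) and *Mnt* (-0.27) at 6 h, of *Mnt* at 10 h (-0.045), and of *Mxd1* (-0.11) and *Mnt* (-0.372) at 24 h turned sign, including *Mnt* at 10 h and *Mxd1* at 24 h, which were beyond the CreER replicate difference against 0 h. Depth limits *Myc* in O4AID, where no change between times could be read.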

Other observations

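*Mycl* and *Mxd4* were the members past 2-fold at both 10 h and 24 h in O4AID, and the genes nearest to each over the 8 comparisons were found as well, a step added after the values were seen. For *Mycl* they were *Rps10-ps2*, *Pramel6*, *Alg13*, *Cited2* and *Mreg*, at RMS differences of 0.134 to 0.18, beside a median of 0.774 over all genes. *Cited2* encodes a transcriptional coregulator. For *Mxd4* they were *Nsmf*, *Kifc3*, *Gpr20*, *Aspg* and *Pld2*, at 0.136 to 0.162, beside a median of 0.914, and their log2 ratios at 24 h in O4AID were between 1.76 and 2.08. Here too the genes were picked as the nearest, so their distance below the median carries no test.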
